A study of Mus musculus with 9 samples.

Results

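The RNA of 36 mouse genes that build and run the lysosome was followed in cultured articular chondrocytes, the resident cells of joint cartilage. The genes were chosen by name. They encode 6 proteins of the lysosomal membrane, 3 carriers or precursors of lipid-handling proteins, 20 hydrolases of 4 kinds, 5 subunits of the proton pump and 2 transcription factors. All 36 were found, with 1 identifier each, among the 55450 genes of the expression tables, and all 36 were among the 12441 genes that passed a filter of at least 1 FPKM in at least 3 libraries. FPKM is a fragment count scaled by exon length and by the library's total, so levels can be compared between genes.

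Primary mouse articular chondrocytes fell into 3 groups of 3 libraries. The group called bleomycin plus ST045849 was exposed to the DNA-breaking drug bleomycin (50 µg/mL, 24 h) and then to ST045849 at 20 µM for 5 days. The bleomycin group received the same bleomycin and then DMSO, and the vehicle group received PBS and then DMSO. ST045849 inhibits the enzyme O-GlcNAc transferase, by which single sugar residues are added to proteins of the nucleus and cytoplasm. All groups shared primary culture at 3% oxygen with 10% serum, a pretreatment with hyaluronidase (4 U/mL, 4 h), and a change of medium every 48 h. Cells given ST045849 without bleomycin were not analysed here, so the action of ST045849 on undamaged cells cannot be told apart from its action after bleomycin. Whether the libraries of a group came from separate animals or cultures is not stated in the labels. The p-values therefore cover the spread between libraries, which may be technical.

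Lysosomes are acidic compartments in which hydrolases break down glycolipids, glycosaminoglycans, glycoproteins and glycogen. The vacuolar ATPase pumps protons into them, and heavily glycosylated membrane proteins line them. In chondrocytes they degrade proteoglycans taken up from the cartilage matrix, and inherited loss of several of these hydrolases causes skeletal storage disease. The factors TFEB and TFE3 bind CLEAR elements, short sites built around an E-box, in the promoters of many lysosomal genes. Glb1 encodes lysosomal beta-galactosidase, the enzyme behind the senescence-associated beta-galactosidase stain.

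Of the 36 genes, 31 had RefSeq promoter windows on GRCm38.p6, each running from 250 bases before the transcription start to 50 bases after it. The CLEAR core TCACGTG, searched on both strands and containing the E-box CACGTG, was found in the windows of 10 of these 31 genes (32.3%), against 4.29% of the 27025 genes with a window. The E-box alone was found in the same 10 lysosomal genes and in 8.09% of all genes with a window. The genes were Lamp1, Mcoln1, Gla, Glb1, Arsa, Naglu, Sgsh, Gaa, Atp6v0d1 and Atp6v1a. The sites of 5 genes are shown, each with 30 bases on the strand of its gene, because these genes carry results given in detail or stand for their kind of protein. Capitals mark the core, read on either strand. In Gla and Atp6v0d1 the core is present on both strands at overlapping positions.
Glb1: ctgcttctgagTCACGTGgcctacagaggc
Gla: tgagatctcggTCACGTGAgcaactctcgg
Lamp1: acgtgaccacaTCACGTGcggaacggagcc
Sgsh: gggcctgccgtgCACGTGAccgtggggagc
Atp6v0d1: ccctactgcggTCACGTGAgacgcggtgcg

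On GRCm38.p6 these sites lie at chr9:114401018-114401047 (plus strand, Glb1), chrX:134601182-134601211 (minus strand, Gla), chr8:13159134-13159163 (plus strand, Lamp1), chr11:119355522-119355551 (minus strand, Sgsh) and chr8:105566050-105566079 (minus strand, Atp6v0d1). The E-box CACGTG within the core began 48 bases before the RefSeq start of Glb1, 194 before that of Gla, 15 before that of Lamp1, 29 before that of Sgsh and 3 before that of Atp6v0d1. Gene positions given below are from GENCODE, whose starts differ from these RefSeq starts for some genes, Gla among them. A match of letters is a description of the window and was not tested as a binding site. CLEAR elements are known from lysosomal promoters, so a high share in genes chosen as lysosomal is not a result of these data. The genes compared with were all those with a window, expressed here or not. The 10 genes with the core had a median log2 change of 0.38 with bleomycin against vehicle, and the 21 genes with a window but no core had 0.36. With bleomycin plus ST045849 against vehicle the medians were 0.54 with the core and 0.42 without it.

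Low FPKM values fell in steps of whole fragments, which put the depth of the 9 libraries at 31500000 to 35600000 fragments. At that depth the member with the fewest fragments in a library had between 291 and 864. Correlation between libraries of a group was 0.936 to 0.979. All 11 listed chondrocyte markers were present in every group. Their summed level was 16900 to 24000 FPKM with bleomycin plus ST045849, 19900 to 28300 with bleomycin and 26600 to 36800 with vehicle. With bleomycin plus ST045849 against vehicle, Acan, Matn3 and Col11a1 fell at a limma adjusted p under 0.05, as did 1.74% of all genes. The other 8 of the 11 did not reach that threshold, and 3 of the 11 had changes above 0. In 8 of all 11 (72.7%) the ST045849 libraries all lay below those of vehicle, as in 6.66% of all genes. The median change of the 11 was -0.65, beside 0.19 over all genes. With bleomycin against vehicle none of the 11 reached the threshold. The bleomycin libraries all lay below those of vehicle in 3 (27.3%, beside 6.53% of all genes), and the median was -0.38, beside 0.1. Longer genes were lower in libraries 2 and 3 of the ST045849 group. The change in log2 level per doubling of exon length was 0.019, -0.212 and -0.139 in ST045849 libraries 1, 2 and 3, against -0.072 to 0.101 in the other 6 libraries.

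The summed level of the lysosomal genes was higher in all 3 bleomycin libraries than in any vehicle library, and higher again in all 3 libraries with ST045849. The summed FPKM of the 36 genes was 2862, 2826 and 2943 with bleomycin plus ST045849, 2502, 2443 and 2377 with bleomycin, and 2086, 1833 and 1967 with vehicle. The means were 2880 ± 59.9, 2440 ± 62.5 and 1960 ± 127 FPKM in that order of groups (SD, n = 3 each). The 3 groups did not overlap on this scale. As a share of each library's FPKM sum, however, the genes made up 0.749, 0.584 and 0.629% with bleomycin plus ST045849, 0.702, 0.66 and 0.653% with bleomycin, and 0.513, 0.539 and 0.539% with vehicle. On the share, both bleomycin groups lay above vehicle without overlap, and the group with ST045849 overlapped the group with bleomycin alone. The FPKM sum of a whole library was 382000 to 484000 with bleomycin plus ST045849, 357000 to 370000 with bleomycin and 340000 to 407000 with vehicle.

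**Figure D1:**
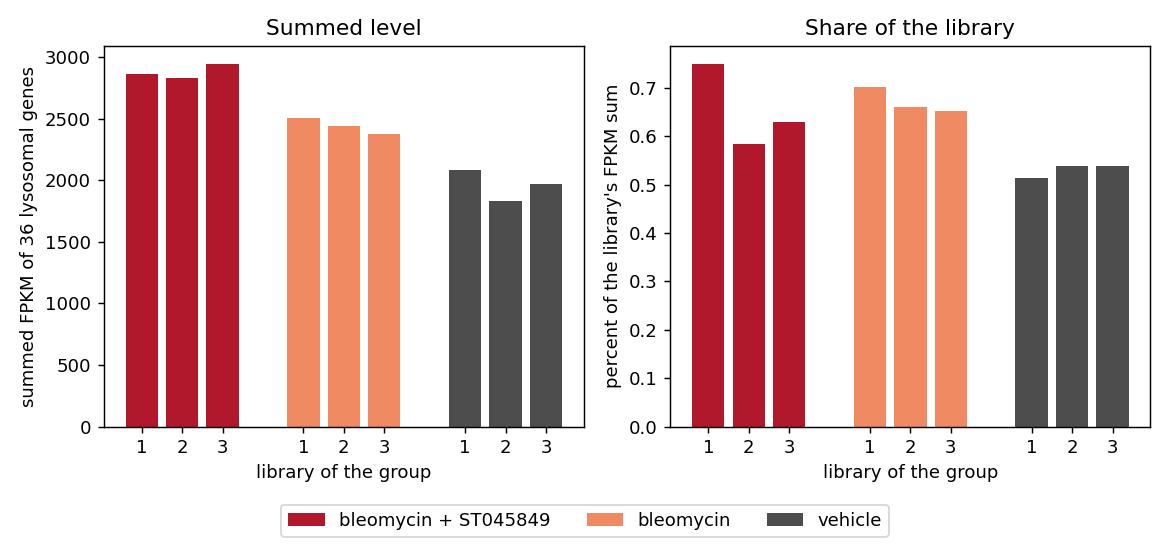
Bars give, for each library, the summed FPKM of the 36 lysosomal genes (left) and that sum as a percent of the library's FPKM total (right), with the libraries of bleomycin plus ST045849, bleomycin and vehicle from left to right. The sum separates all 3 groups, whereas the share of 0.584 to 0.749% with ST045849 overlaps the 0.653 to 0.702% with bleomycin.

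With bleomycin against vehicle, 2 of the 36 genes rose, Gla and Fuca1, and none fell. A gene was called when limma's adjusted p over all 12441 genes was under 0.05, and log2 changes are of FPKM + 1, which understates the change of low genes. Of all genes tested, 4.2% rose and 0.675% fell. The log2 change was above 0 for 34 of the 36 genes, as for 62% of all genes, and the median was 0.38, beside 0.1 over all genes tested. An unadjusted p under 0.05 was reached by 14 of the 36 (38.9%) and by 17.4% of all genes. The median stayed above 0 under 2 other scalings, at 0.2 with median-of-ratios scaling and 0.37 with quantile normalization. Median-of-ratios scaling moved the median of all genes to -0.05, and relative to all genes the lysosomal median was 0.28 higher in the main fit and 0.26 to 0.4 higher under the alternatives. In 21 of the 36 genes (58.3%) the 3 bleomycin libraries all lay above the 3 vehicle libraries, as they did in 21.4% of all genes tested. In none did they all lie below, as they did in 6.53% of all genes.

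With bleomycin plus ST045849 against bleomycin, none of the 36 genes was called by limma in either direction, and the share called among all genes was 0%. At an unadjusted p under 0.05 there were 5 of the 36 genes, Neu1, Atp6v0d1, Gla, Atp6v1b2 and Cd63, all with changes above 0, and 2804 of all genes (22.5%). The change was above 0 for 22 of the 36, as for 55.1% of all genes. The median log2 change of the 36 was 0.09 beside 0.06 over all genes, and with quantile normalization it was below 0, at -0.17. In 10 of the 36 (27.8%) the ST045849 libraries all lay above the bleomycin libraries, against 16.5% of all genes, and in none did they all lie below, against 8.67% of all genes. Libraries with equal replicate numbers deviated together in this pair of groups. With replicate number as a block and the 2 groups alone, Neu1 and Atp6v0d1 rose with adjusted p of 0.0371 and 0.0367, where 11.3% of all genes rose and 8% fell. Both calls ended when each library's exon length trend was also removed. That fit called none of the 36 genes, and the number of all genes called higher was 78 against 1408 with the block alone.

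With bleomycin plus ST045849 against vehicle, 8 of the 36 genes rose and none fell, where 8.11% of all genes rose and 1.74% fell. The 8 were Gla, Fuca1, Hexa, Smpd1, Npc2, Atp6v1b2, Neu1 and Atp6v1h. The change was above 0 for 33 of the 36, as for 65.2% of all genes, and an unadjusted p under 0.05 was reached by 18 of the 36 (50%) and by 31.1% of all genes. The change had a median of 0.47 over the 36 beside 0.19 over all genes. The median was 0.23 under each of the 2 other scalings, and relative to all genes it was 0.28 higher in the main fit, 0.22 to 0.45 higher under the alternatives and 0.13 higher without ST045849 library 1. Both comparisons with vehicle use the same 3 vehicle libraries. In 20 genes (55.6%) the libraries with ST045849 all lay above those of vehicle, against 21% of all genes, and Tfeb was the single gene in which they all lay below, against 6.66% of all genes.

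**Figure D2:**
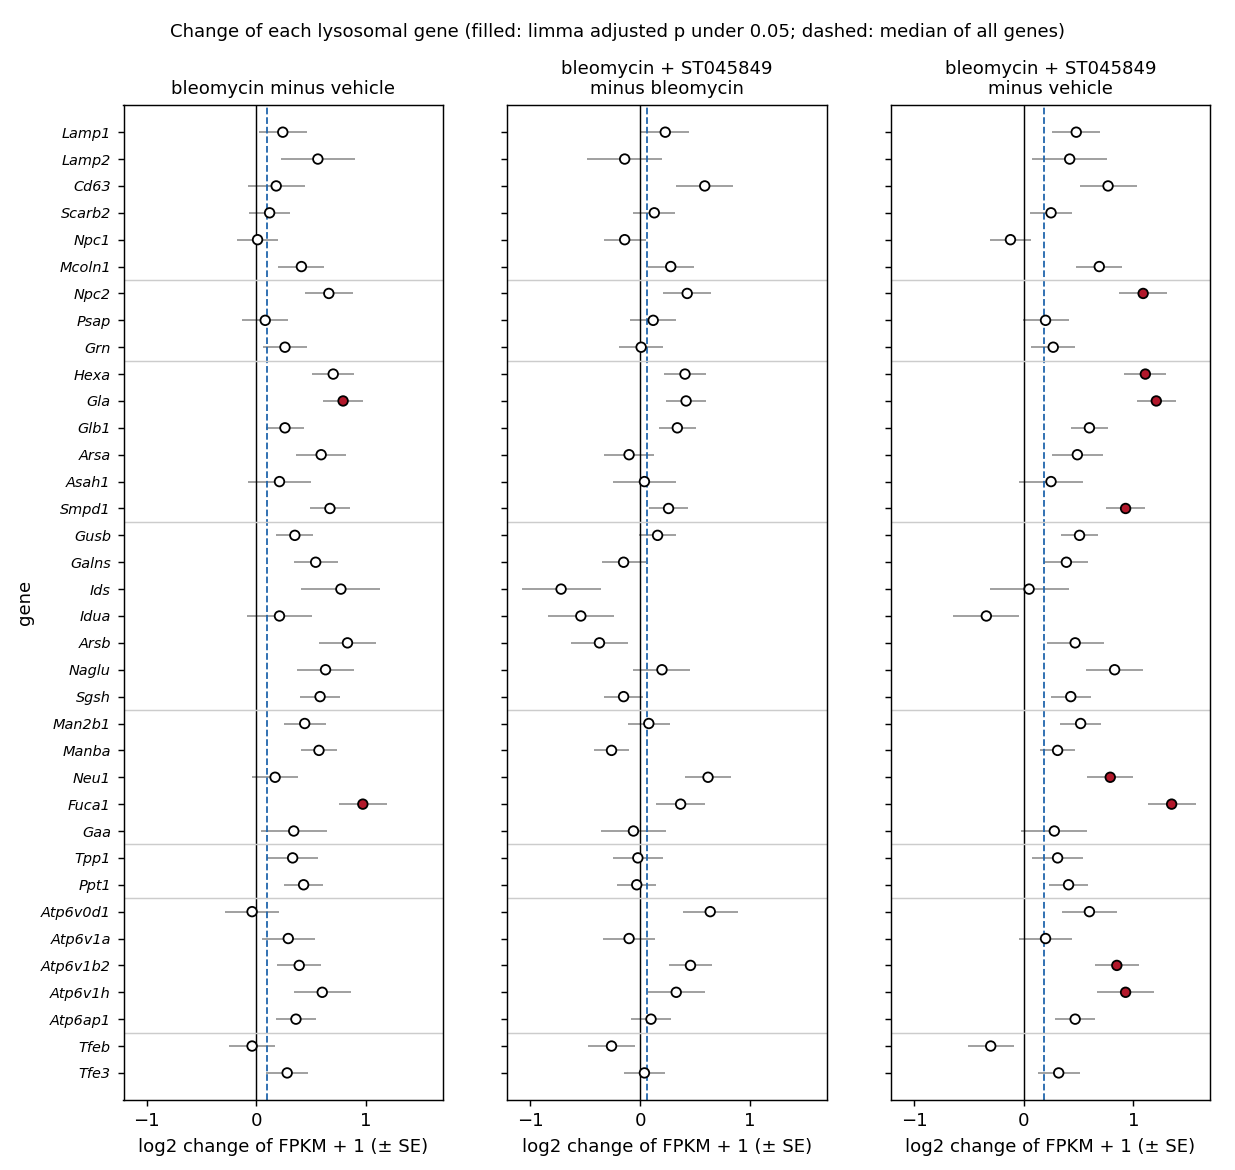
Each row is a gene, grouped by role from membrane proteins at the top to transcription factors at the bottom, and each panel gives its log2 change of FPKM + 1 with its SE for 1 of the 3 comparisons. Filled points mark the 2, 0 and 8 genes called by limma in the panels from left to right, and the dashed line is the median of all genes tested (0.1, 0.06 and 0.19).

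Among the 6 membrane proteins none was called in any comparison. Lamp1 and Lamp2, which coat the inner face of the lysosomal membrane, and Cd63, a tetraspanin of late endosomes and lysosomes, were among the most abundant of the 36 genes, and Cd63 had the highest mean in vehicle, at 323 FPKM. Cd63 had 428, 587 and 619 FPKM with bleomycin plus ST045849, 388, 343 and 343 with bleomycin, and 425, 245 and 300 with vehicle. All ST045849 libraries lay above all other libraries, and vehicle library 1 lay just below them and above every bleomycin library. The log2 change with ST045849 was 0.59 ± 0.26 against bleomycin (SE, limma adjusted p = 0.214) and 0.77 ± 0.26 against vehicle (limma adjusted p = 0.0782). Quantile normalization gave 0.07 against bleomycin and 0.49 against vehicle. Against vehicle, the limma adjusted p of Cd63 ran over 0.0295 to 0.277 as single libraries were left out, and was under 0.05 in 2 of 9 fits (without ST045849 library 1 or vehicle library 1).

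Lamp1 had 359, 357 and 428 FPKM with bleomycin plus ST045849, 282, 326 and 369 with bleomycin, and 271, 233 and 323 with vehicle. The bleomycin libraries overlapped those of both other groups, and the libraries with ST045849 lay above those of vehicle. The change with ST045849 against vehicle was 0.48 ± 0.22 (limma adjusted p = 0.169), and 9.3% of the exon length of Lamp1 is shared with Grtp1 on the opposite strand. Lamp2 had 221, 90.8 and 230 FPKM with bleomycin plus ST045849, 198, 182 and 173 with bleomycin, and 97, 132 and 150 with vehicle. Its second ST045849 library stood at 0.402 of the mean of the other 2, below every vehicle library. Without that library the log2 change of Lamp2 with ST045849 against bleomycin was 0.29, and with all libraries it was -0.14 ± 0.34 (limma adjusted p = 0.804).

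Mcoln1, which encodes the calcium channel TRPML1 of the lysosomal membrane, averaged 21.7 ± 2.53 FPKM with bleomycin plus ST045849, 17.8 ± 3.33 with bleomycin and 13.2 ± 2.41 with vehicle (SD, n = 3 each). Its change with ST045849 against vehicle was 0.69 ± 0.21 (limma adjusted p = 0.0593). Npc1, which exports cholesterol from the lysosome, averaged 23.2 ± 3.27, 25.5 ± 1.55 and 25.4 ± 3.6 FPKM in the same order of groups. Its 3 changes ran between -0.14 and 0.01. Scarb2, the receptor that carries beta-glucocerebrosidase to the lysosome, had a log2 change of 0.12 ± 0.19 with bleomycin against vehicle (limma adjusted p = 0.838).

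Of the 3 lipid carriers and precursors, Npc2 rose. Npc2 encodes the soluble protein that hands cholesterol to NPC1, and lies at chr12:84754562-84773152 on the minus strand (GRCm38). It had 97.3, 119 and 97.9 FPKM with bleomycin plus ST045849, 89.5, 79.3 and 64.6 with bleomycin, and 60.8, 42.5 and 43.8 with vehicle. The 3 groups did not overlap. The change with ST045849 against vehicle was 1.09 ± 0.22, or 2.13-fold (limma adjusted p = 0.0134). The changes of 0.66 ± 0.22 with bleomycin against vehicle and 0.43 ± 0.22 with ST045849 against bleomycin had limma adjusted p of 0.124 and 0.247. Psap, the precursor of the saposins that present lipids to hydrolases, had 393, 325 and 336 FPKM with bleomycin plus ST045849, 357, 332 and 281 with bleomycin, and 329, 323 and 265 with vehicle. The groups of Psap overlapped in every comparison. Grn, the granulin precursor, averaged 83.5 ± 16.3, 82.2 ± 6.83 and 68.4 ± 5.53 FPKM in the same order of groups.

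The 6 hydrolases of glycolipids and sphingolipids had the highest median of any role in both comparisons with vehicle, 0.63 with bleomycin and 0.76 with bleomycin plus ST045849. Under median-of-ratios scaling these medians were 0.46 and 0.53, and with each library's exon length trend removed they were 0.5 and 0.44, where the glycoprotein and glycogen hydrolases had the higher median in the second comparison, at 0.54. The summed level of the 6 was 355 to 374 FPKM with bleomycin plus ST045849, 293 to 305 with bleomycin and 183 to 209 with vehicle, and the 3 groups did not overlap. Gla rose in both comparisons with vehicle, and Hexa and Smpd1 rose with bleomycin plus ST045849 against vehicle.

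Glb1, at chr9:114401076-114474898 on the plus strand, was not called in any comparison. It had 29.6, 32.3 and 26.2 FPKM with bleomycin plus ST045849, 23.3, 22.2 and 23.3 with bleomycin, and 21, 17.1 and 19.3 with vehicle. All bleomycin libraries lay above all vehicle libraries, and all libraries with ST045849 lay above all bleomycin libraries. The log2 change was 0.26 ± 0.17 with bleomycin against vehicle, or 1.19-fold (limma adjusted p = 0.527). It was 0.34 ± 0.17 with ST045849 against bleomycin, or 1.26-fold (limma adjusted p = 0.252). With bleomycin plus ST045849 against vehicle it was 0.6 ± 0.17, or 1.51-fold (limma adjusted p = 0.0542). Between this pair of groups the change of Glb1 was 0.36 with median-of-ratios scaling, 0.31 with quantile normalization and 0.26 with the exon length trend removed (limma adjusted p = 0.185, 0.241 and 0.323). With the trend removed the other changes of Glb1 were each 0.13, and with median-of-ratios scaling that with bleomycin against vehicle was 0.09. For bleomycin plus ST045849 against vehicle, fits that left out a single library gave limma adjusted p of 0.0478 to 0.203, under 0.05 in 2 of 9 (without ST045849 library 1 or vehicle library 1). Tmppe shares 5.5% of the exon length of Glb1 on the same strand.

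Gla encodes alpha-galactosidase A, which removes terminal galactose from globotriaosylceramide, and lies at chrX:134588149-134601125 on the minus strand. It was the lowest of the 6 lipid hydrolases. It had 7.83, 10 and 8.97 FPKM with bleomycin plus ST045849, 6.08, 7.42 and 5.83 with bleomycin, and 3.61, 3.34 and 2.94 with vehicle. The 3 groups did not overlap. Gla rose by 0.79 ± 0.18 with bleomycin against vehicle, or 1.73-fold (limma adjusted p = 0.0308), and by 1.21 ± 0.18 with bleomycin plus ST045849 against vehicle, or 2.31-fold (limma adjusted p = 0.00377). These folds are of FPKM + 1 and understate the change of FPKM at this low level. The call with bleomycin ended without any of the 3 bleomycin or the 3 vehicle libraries, with limma adjusted p of 0.0583 to 0.145. The call with ST045849 against vehicle held without any of the 9 libraries.

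Hexa encodes the alpha subunit of beta-hexosaminidase, which trims GM2 ganglioside, and lies at chr9:59539540-59565109 on the plus strand. It had 192, 217 and 187 FPKM with bleomycin plus ST045849, 162, 142 and 143 with bleomycin, and 96.6, 82.4 and 95.6 with vehicle, again without overlap between the groups. The change was 0.7 ± 0.19 with bleomycin against vehicle (1.62-fold, limma adjusted p = 0.0616) and 1.11 ± 0.19 with bleomycin plus ST045849 against vehicle (2.15-fold, limma adjusted p = 0.00657). The call with ST045849 against vehicle held without any of the 9 libraries, but with each library's exon length trend removed the change was 0.64 (limma adjusted p = 0.0539). Tmem202 on the opposite strand shares 12.8% of the exon length of Hexa.

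Smpd1, which encodes acid sphingomyelinase at chr7:105554360-105558389 on the plus strand, had 51.7, 60 and 48.4 FPKM with bleomycin plus ST045849, 45.2, 48.1 and 39.4 with bleomycin, and 30.3, 26.9 and 25.3 with vehicle. The groups did not overlap. The change was 0.67 ± 0.18 with bleomycin against vehicle (1.59-fold, limma adjusted p = 0.0663) and 0.93 ± 0.18 with bleomycin plus ST045849 against vehicle (1.91-fold, limma adjusted p = 0.0127). Arsa, the sulfatase of sulfatide, averaged 24.3 ± 6.4 FPKM with bleomycin plus ST045849, 25.8 ± 4.23 with bleomycin and 16.8 ± 2.61 with vehicle. Asah1, acid ceramidase, averaged 51.3 ± 17.1, 48.7 ± 10.9 and 41.7 ± 8.12 FPKM in that order (SD, n = 3 each). Neither was called in any comparison.

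**Figure D3:**
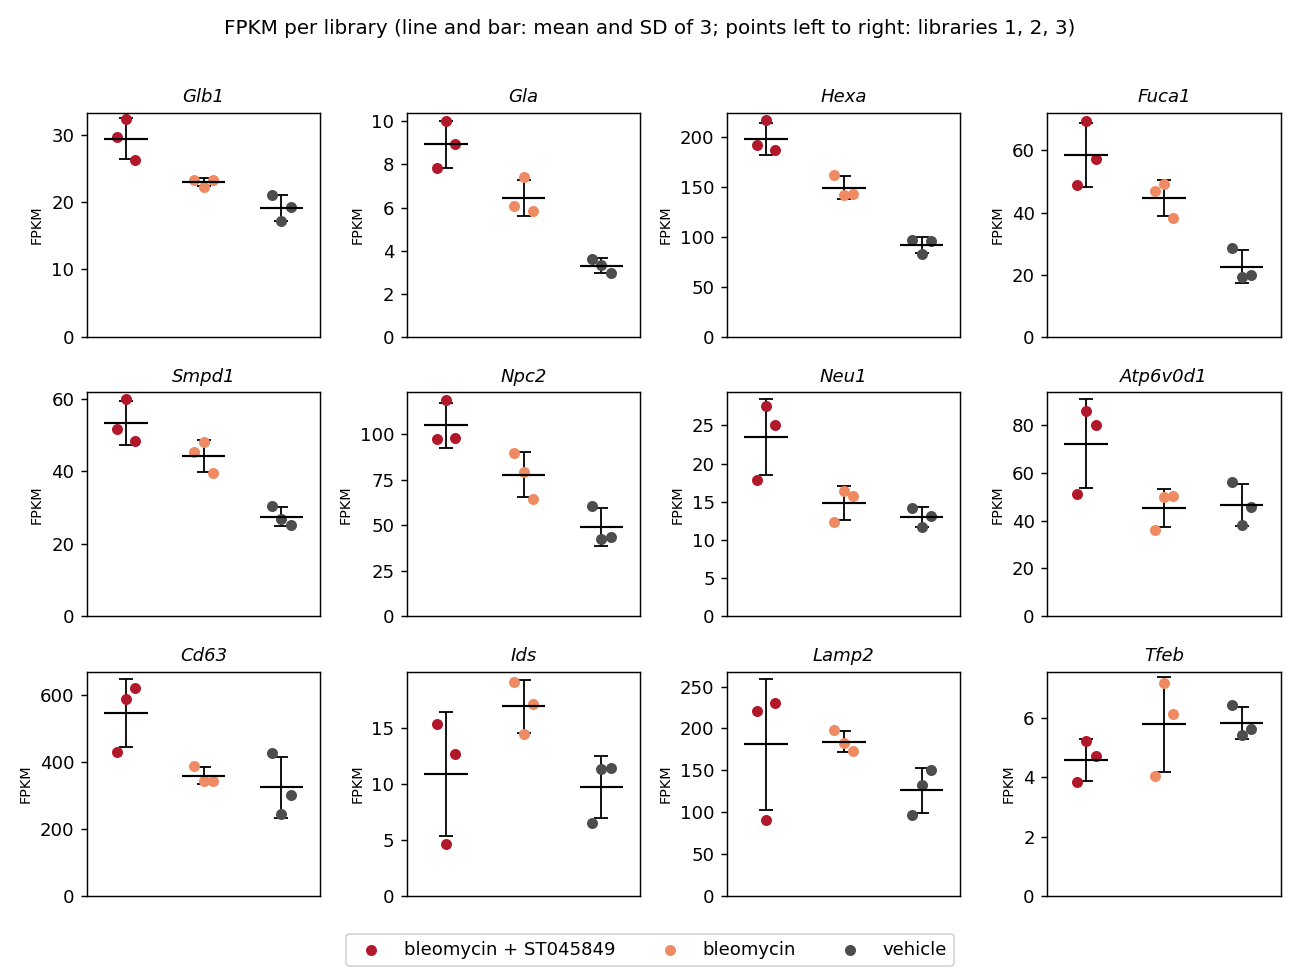
Points give the FPKM of 12 genes in every library, with the mean and SD of each group of 3 as a line and bar, for bleomycin plus ST045849, bleomycin and vehicle from left to right. Glb1, Gla, Hexa, Smpd1 and Npc2 step down across the 3 groups without overlap, Neu1 and Atp6v0d1 are highest with bleomycin plus ST045849, and the second ST045849 library is low for Ids and Lamp2. With Gusb, which is not shown, 6 of the 36 genes (16.7%) have this order without overlap, as have 1.97% of all genes tested.

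None of the 7 hydrolases of glycosaminoglycans, the sugar chains of cartilage proteoglycans, was called in any comparison. All 7 had changes above 0 with bleomycin against vehicle, as had 62% of all genes, with a median of 0.58 beside 0.1 over all genes. In 6 of the 7 the bleomycin libraries all lay above those of vehicle, as in 21.4% of all genes. With ST045849 against bleomycin, 5 of the 7 were below 0, with a median of -0.15 that was also below 0 under both other scalings. The summed level of the 7 genes was 92.9 to 124 FPKM with bleomycin plus ST045849, 105 to 124 with bleomycin and 72.8 to 77.4 with vehicle. Both bleomycin groups lay above vehicle on this sum and overlapped each other.

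Arsb, a sulfatase of chondroitin and dermatan sulfate, had 17.5, 7.93 and 10.3 FPKM with bleomycin plus ST045849, 17.1, 13.3 and 14.5 with bleomycin, and 7.19, 7.66 and 8.98 with vehicle. Bleomycin libraries lay above vehicle libraries, and those with ST045849 overlapped both. The change with bleomycin against vehicle was 0.83 ± 0.26, or 1.78-fold (limma adjusted p = 0.097). With single libraries left out, limma adjusted p lay between 0.0255, without ST045849 library 1, and 0.292, without bleomycin library 1. Gm26527 on the opposite strand shares 32.3% of the exon length of Arsb, and Gm47210 on that strand also overlaps Arsb. Use of strand in counting is not given in the sources used here, so the level of Arsb is uncertain. Sgsh, a heparan sulfate sulfohydrolase, averaged 5.86 ± 1.05 FPKM with bleomycin plus ST045849, 6.55 ± 0.0655 with bleomycin and 4.07 ± 0.483 with vehicle. Sgsh shares 21.6% of its exon length with Card14 on the opposite strand, and Arsa shares 18.8% with C230037L18Rik.

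Ids encodes the sulfatase that removes the sulfate group of iduronate in heparan and dermatan sulfate, and Idua the hydrolase that then removes the iduronate. Ids had 15.3, 4.66 and 12.7 FPKM with bleomycin plus ST045849, 19.1, 14.4 and 17.1 with bleomycin, and 6.51, 11.3 and 11.4 with vehicle. Bleomycin libraries lay above vehicle libraries, and the ST045849 libraries spread over both. The change with ST045849 against bleomycin was -0.72 ± 0.36 (limma adjusted p = 0.245), and with the replicate block its limma adjusted p was 0.0513. Without ST045849 library 2 the change was -0.25 (limma adjusted p = 0.638). The second ST045849 library of Ids stood at 0.333 of the mean of the other 2. Idua had 6.82, 3.98 and 2.08 FPKM with bleomycin plus ST045849, 7.17, 6.17 and 5.36 with bleomycin, and 4.32, 6.07 and 5.4 with vehicle. All 3 groups overlapped. Its change with ST045849 against bleomycin was -0.54 ± 0.3 (limma adjusted p = 0.27). Without ST045849 library 1 it was -0.88 and without ST045849 library 3 it was -0.21 (limma adjusted p = 0.0398 and 0.621).

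Naglu, which removes N-acetylglucosamine from heparan sulfate, had 35.6, 39.7 and 22.7 FPKM with bleomycin plus ST045849, 34.1, 28.7 and 21.4 with bleomycin, and 20.6, 18.4 and 14.1 with vehicle. Every library of either bleomycin group lay above every vehicle library. The change with bleomycin plus ST045849 against vehicle was 0.83 ± 0.26 (limma adjusted p = 0.0667). It was 0.44 with the exon length trend removed and 0.54 with quantile normalization (limma adjusted p = 0.329 and 0.24). Single libraries left out gave limma adjusted p of 0.0444 (without ST045849 library 3) to 0.22, under 0.05 in 1 of 9 fits. Gusb, beta-glucuronidase, averaged 32.3 ± 1.44 FPKM with bleomycin plus ST045849, 28.9 ± 1.75 with bleomycin and 22.4 ± 2.79 with vehicle. Galns, a sulfatase of keratan and chondroitin sulfate, averaged 10.6 ± 1.99, 11.7 ± 1.38 and 7.76 ± 0.87 FPKM in that order (SD, n = 3 each).

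Of the 5 hydrolases of glycoproteins and glycogen, Fuca1 rose in both comparisons with vehicle and Neu1 rose with bleomycin plus ST045849. Fuca1 encodes alpha-L-fucosidase, which removes fucose from glycoproteins and glycolipids, and lies at chr4:135920735-135940311 on the plus strand. It had 48.8, 69.5 and 57.4 FPKM with bleomycin plus ST045849, 47.1, 49.1 and 38.1 with bleomycin, and 28.7, 19.1 and 19.8 with vehicle. Both bleomycin groups lay above vehicle, and ST045849 library 1 lay within the range of the bleomycin libraries. Fuca1 rose by 0.97 ± 0.22 with bleomycin, or 1.96-fold (limma adjusted p = 0.0333), and by 1.35 ± 0.22 with bleomycin plus ST045849, or 2.54-fold (limma adjusted p = 0.00599). On the scale of FPKM + 1 in the main fit these were the largest changes of the 36. Over the alternative settings the highest change with bleomycin plus ST045849 against vehicle was 1.38 for Fuca1 and 1.41 for Gla. The call with bleomycin ended without any of bleomycin libraries 1, 2 and 3 or vehicle libraries 2 and 3, with limma adjusted p of 0.0683 to 0.142, and the call with ST045849 held without any of the 9.

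Neu1 encodes the lysosomal sialidase, which also trims the sialic acids of LAMP1, and lies at chr17:34931253-34935953 on the plus strand. It had 17.9, 27.5 and 25 FPKM with bleomycin plus ST045849, 12.3, 16.4 and 15.8 with bleomycin, and 14.2, 11.7 and 13.1 with vehicle. The ST045849 libraries lay above all others, and bleomycin and vehicle overlapped. The change was 0.62 ± 0.21 with ST045849 against bleomycin, or 1.54-fold (limma adjusted p = 0.203, and 0.0371 with the replicate block). With the block and the exon length trend removed it was 0.51 (limma adjusted p = 0.0912). Against vehicle Neu1 rose by 0.79 ± 0.21, or 1.73-fold (limma adjusted p = 0.0397). That call ended without any of the bleomycin libraries, ST045849 libraries 2 and 3 or vehicle libraries 2 and 3, with limma adjusted p of 0.0505 to 0.158.

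The other 3 were not called in any comparison. Gaa, the acid alpha-glucosidase that degrades glycogen, had 188, 190 and 85.8 FPKM with bleomycin plus ST045849, 183, 151 and 126 with bleomycin, and 123, 126 and 109 with vehicle. The third ST045849 library of Gaa lay below every vehicle library while the other 2 lay above every bleomycin library. Man2b1 and Manba, the alpha- and beta-mannosidases, had log2 changes of 0.44 ± 0.19 and 0.57 ± 0.16 with bleomycin against vehicle (limma adjusted p = 0.26 and 0.0745). Manba had the lowest vehicle level of the 36, at 2.23 ± 0.15 FPKM (SD, n = 3).

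Tpp1, a tripeptidyl peptidase, and Ppt1, a palmitoyl-protein thioesterase, are genes of the neuronal ceroid lipofuscinoses, storage diseases of the nervous system. Ppt1 had 67.8, 52.1 and 58.6 FPKM with bleomycin plus ST045849, 59.6, 61.2 and 59.8 with bleomycin, and 43.8, 41.6 and 47.9 with vehicle. Each bleomycin group lay above vehicle, and the change with bleomycin was 0.43 ± 0.18 (limma adjusted p = 0.239). Tpp1 averaged 44.5 ± 2.39 FPKM with bleomycin plus ST045849, 45.2 ± 4.25 with bleomycin and 36.7 ± 10.8 with vehicle, and its groups overlapped.

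Of the 5 proton pump subunits, Atp6v1b2 and Atp6v1h rose with bleomycin plus ST045849 against vehicle, and none was called in the other comparisons. The median change of the 5 with ST045849 against bleomycin was 0.33, and under median-of-ratios scaling and quantile normalization it was 0.27 and 0.1. Atp6v0d1, a subunit that joins the rotor in the membrane to the central stalk, lies at chr8:105524465-105566047 on the minus strand. It had 51, 86.1 and 79.9 FPKM with bleomycin plus ST045849, 36.1, 49.8 and 50.2 with bleomycin, and 56, 38.4 and 45.9 with vehicle. The ST045849 libraries lay above all bleomycin libraries, ST045849 library 1 lay within the vehicle range, and bleomycin and vehicle overlapped. The change was 0.64 ± 0.25 with ST045849 against bleomycin, or 1.56-fold (limma adjusted p = 0.204, and 0.0367 with the replicate block), the largest rise of the 36 in that comparison. With the exon length trend removed it was 0.26 (limma adjusted p = 0.456, and 0.287 with the block), and with quantile normalization it was 0.31. Leaving out single libraries gave limma adjusted p between 0.0352, without ST045849 library 1, and 0.504, without ST045849 library 2.

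Atp6v1b2, a subunit of the catalytic head at chr8:69088646-69113711, had 28.5, 33 and 36.1 FPKM with bleomycin plus ST045849, 19.1, 27.6 and 23.9 with bleomycin, and 19.2, 17.6 and 15.8 with vehicle. The libraries with ST045849 lay above those of both other groups. It rose by 0.85 ± 0.2 against vehicle, or 1.81-fold (limma adjusted p = 0.0239). Atp6v1h, a regulatory subunit at chr1:5070018-5162529, had 31.6, 34.1 and 50.8 FPKM with bleomycin plus ST045849, 24.3, 30.2 and 36.6 with bleomycin, and 25.4, 14.5 and 19.7 with vehicle. The libraries with ST045849 lay above those of vehicle, and bleomycin overlapped both. It rose by 0.93 ± 0.26 against vehicle, or 1.91-fold (limma adjusted p = 0.048). Atp6v1a, the ATP-binding subunit, had 57.1, 33.1 and 59.6 FPKM with bleomycin plus ST045849, with its second library below every vehicle library. The mean of Atp6v1a was 51.8 ± 2.4 with bleomycin and 42.4 ± 6.41 with vehicle. Atp6ap1, an accessory subunit, averaged 75.3 ± 2.31, 70.3 ± 7.88 and 54.2 ± 2.41 FPKM in the order used above (SD, n = 3 each), and both bleomycin groups lay above vehicle.

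Several of these calls against vehicle rested on single libraries or on the scaling. Smpd1 and Npc2 lost theirs without vehicle library 2 or 3 (limma adjusted p of 0.0595 and 0.0692 for Smpd1, 0.0726 and 0.0692 for Npc2), Atp6v1b2 without ST045849 library 2 or 3 or vehicle library 2 or 3 (up to 0.108), and Atp6v1h without any library except ST045849 library 1 and vehicle library 1 (up to 0.195). Median-of-ratios scaling ended the calls of Gla and Fuca1 with bleomycin (limma adjusted p = 0.0811 and 0.0698) and those of Atp6v1b2, Atp6v1h and Neu1 with bleomycin plus ST045849 (0.0681 to 0.0931). Quantile normalization ended the call of Gla with bleomycin (limma adjusted p = 0.0882) and those of Npc2, Smpd1, Atp6v1b2, Atp6v1h and Neu1 with bleomycin plus ST045849 (0.0544 to 0.0891).

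Tfeb and Tfe3 encode the factors that bind CLEAR elements, and neither was called. Tfeb, at chr17:47737030-47792419, had 3.83, 5.24 and 4.72 FPKM with bleomycin plus ST045849, 4.06, 7.19 and 6.14 with bleomycin, and 6.45, 5.44 and 5.64 with vehicle. The ST045849 libraries lay below those of vehicle, and bleomycin overlapped both. The change with bleomycin plus ST045849 against vehicle was -0.3 ± 0.21 (limma adjusted p = 0.352). Tfe3, at chrX:7762560-7775202, averaged 16.3 ± 2.04 FPKM with bleomycin plus ST045849, 15.8 ± 1.43 with bleomycin and 12.9 ± 2.38 with vehicle (SD, n = 3 each). Its changes against vehicle were 0.32 ± 0.19 and 0.28 ± 0.19, with limma adjusted p of 0.279 and 0.535. These are RNA levels, and the movement of TFEB and TFE3 into the nucleus, by which they are mostly controlled, was not measured.

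**Figure D4:**
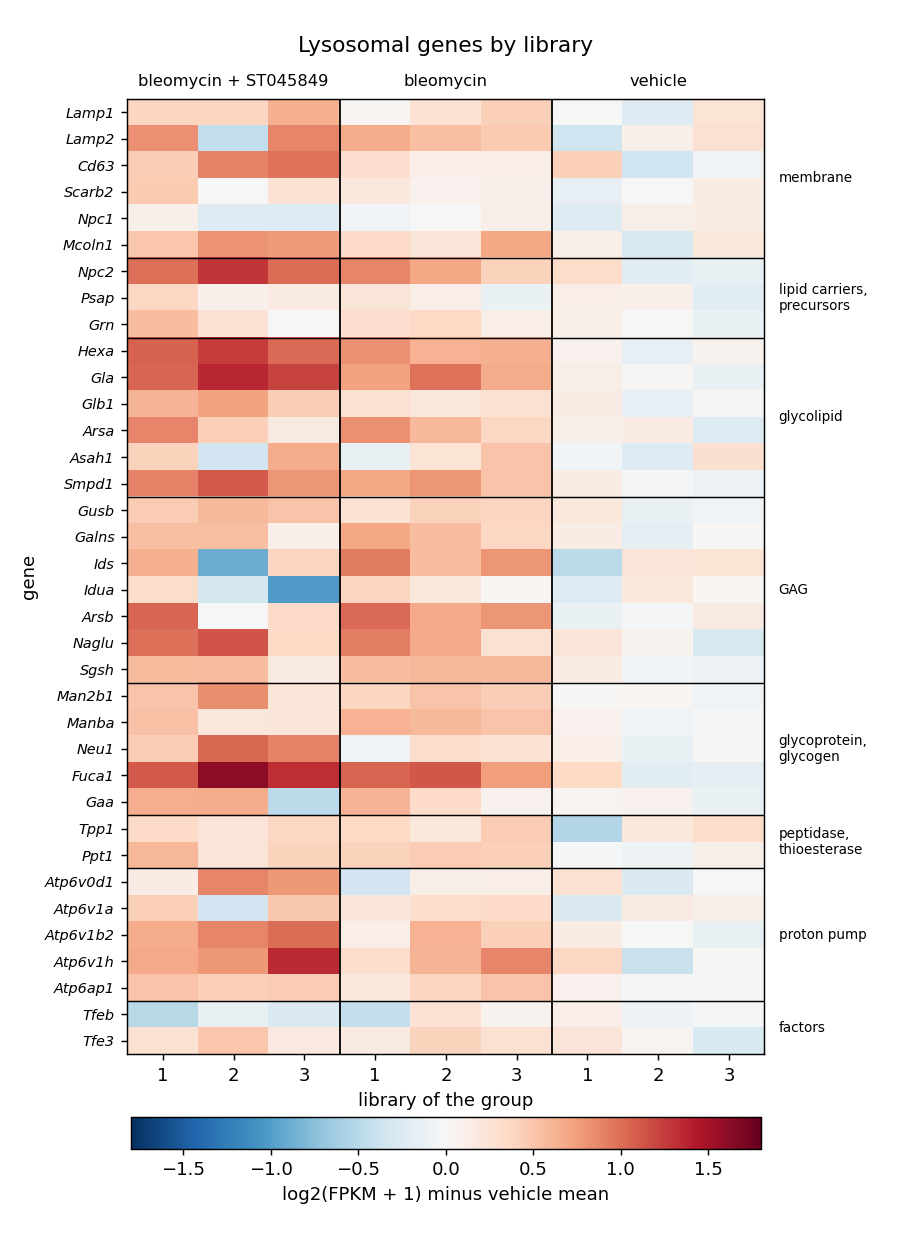
Colour gives log2(FPKM + 1) of each of the 36 genes in each of the 9 libraries minus the vehicle mean of that gene, with genes in rows by role and the groups bleomycin plus ST045849, bleomycin and vehicle from left to right. Most rows are red in both bleomycin groups, the rows of Hexa, Gla and Smpd1 are deeper red with ST045849 than with bleomycin, and Ids and Lamp2 are blue in the second ST045849 library.

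Within the ST045849 group the members did not all put the same library lowest. The lowest of the 3 libraries was library 1 for 11 genes, library 2 for 12 and library 3 for 13. Library 2 stood at 0.333 to 0.57 of the mean of the other 2 for Ids, Lamp2, Asah1, Atp6v1a and Arsb. Across all genes tested, the change with ST045849 against bleomycin had a correlation of -0.5 with log2 exon length, and across the 36 lysosomal genes it was -0.35. Genes share libraries and are not replicates, and the part of exon length in the results was not tested beyond the fits with the length trend removed. With the trend removed, the median change of the 36 genes was 0.23 with bleomycin against vehicle, 0.04 with ST045849 against bleomycin and 0.25 with bleomycin plus ST045849 against vehicle.

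Genes of the same pathways that are not among the 36 were read in 7 lists. Among 20 other lysosomal hydrolases and activators, 5 (25%) rose and none fell with bleomycin against vehicle, beside 4.2% of all genes that rose. All 20 had changes above 0, beside 62% of all genes, with a median of 0.58. Gm2a, the activator that presents GM2 ganglioside to beta-hexosaminidase, averaged 21 FPKM with bleomycin plus ST045849, 21.7 with bleomycin and 8.76 with vehicle. It rose by 1.21 ± 0.2 with bleomycin against vehicle (limma adjusted p = 0.00675). The lysosomal phospholipase gene Pla2g15 rose by 0.97 ± 0.18 (limma adjusted p = 0.0119). With bleomycin plus ST045849 against vehicle 7 of the 20 rose (35%, beside 8.11% of all genes), among them Aga, the aspartylglucosaminidase of glycoprotein breakdown, by 1.08 ± 0.18 (limma adjusted p = 0.00554). Of 11 tested cathepsins, the lysosomal proteases, 4 (36.4%, beside 8.11% of all genes) rose with bleomycin plus ST045849 and 2 (18.2%, beside 4.2%) with bleomycin against vehicle. Ctsf had 61.7, 70.7 and 53.5 FPKM with bleomycin plus ST045849, 55.2, 55.9 and 44 with bleomycin, and 17.6, 21.2 and 15.2 with vehicle. Every vehicle library of Ctsf lay below all others, and it rose by 1.73 ± 0.2 with bleomycin plus ST045849 and by 1.48 ± 0.2 with bleomycin against vehicle (limma adjusted p = 0.00142 and 0.00354). Ctsz rose by 1.23 ± 0.21 with bleomycin plus ST045849 against vehicle (limma adjusted p = 0.00663), and Ctso by 0.87 ± 0.21 with bleomycin against vehicle (limma adjusted p = 0.0371).

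Of 12 other tested proton pump genes, none was called with bleomycin and 3 (25%, beside 8.11% of all genes) rose with bleomycin plus ST045849 against vehicle. Median-of-ratios scaling and removal of the exon length trend each gave 1 call in place of 3. Their median change with ST045849 against bleomycin was 0.48, and 0.13 with the exon length trend removed. Their median exon length was 3548 bases, against 4247 over all genes. Atp6v1f, a subunit of the central stalk, had 77.3, 177 and 123 FPKM with bleomycin plus ST045849, 56.8, 71.4 and 57.3 with bleomycin, and 69.4, 41.1 and 36.6 with vehicle. Its change was 1.32 ± 0.32 with bleomycin plus ST045849 against vehicle (limma adjusted p = 0.029), and the ST045849 libraries lay above all others. Atp6v0e2 rose by 1.22 ± 0.23 in the same comparison (limma adjusted p = 0.0097).

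Of 19 other tested membrane proteins, Gpnmb alone was called. It made 5.26% in each comparison with vehicle, near or below the 4.2% of all genes that rose with bleomycin and the 8.11% with bleomycin plus ST045849. Gpnmb rose by 0.98 ± 0.25 with bleomycin and by 1.3 ± 0.25 with bleomycin plus ST045849 against vehicle (limma adjusted p = 0.0493 and 0.0111). Of 9 genes of mannose-6-phosphate sorting, the route by which hydrolases reach the lysosome, none was called with bleomycin. Gnptg, a subunit of the enzyme that makes the tag, rose by 1.04 ± 0.23 with bleomycin plus ST045849 against vehicle (limma adjusted p = 0.0208). That 1 call of the 9 made 11.1%, near the 8.11% of all genes. Of 17 tested genes of the TFEB family and nutrient signalling, Mitf averaged 2.83 FPKM with bleomycin plus ST045849, 5.73 with bleomycin and 2.51 with vehicle. It rose by 0.95 ± 0.23 with bleomycin against vehicle (limma adjusted p = 0.0445), and its change with ST045849 against bleomycin was -0.84 (limma adjusted p = 0.203). Rheb, the activator of the kinase complex mTORC1 on the lysosome, rose by 0.81 ± 0.22 with bleomycin plus ST045849 against vehicle (limma adjusted p = 0.0438). Each was the 1 call of the 17 in its comparison (5.88%), near or below the 4.2% and 8.11% of all genes.

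Of 21 autophagy genes, 4 (19%, beside 8.11% of all genes) rose with bleomycin plus ST045849 against vehicle. With bleomycin against vehicle the 1 gene called made 4.76%, near the 4.2% of all genes. Gabarapl1, an autophagosome coat protein, averaged 80 FPKM with bleomycin plus ST045849, 56.4 with bleomycin and 28.1 with vehicle. It rose by 1.45 ± 0.22 with bleomycin plus ST045849 and by 0.99 ± 0.22 with bleomycin against vehicle (limma adjusted p = 0.004 and 0.029). Map1lc3b, which encodes LC3B, rose by 0.89 ± 0.21 with bleomycin plus ST045849 against vehicle (limma adjusted p = 0.0258). In none of the 7 lists was a gene called lower in any comparison. Under median-of-ratios scaling, quantile normalization and removal of the length trend, the other hydrolases and activators had 3 calls each in place of 7 with bleomycin plus ST045849 and 2, 3 and 2 in place of 5 with bleomycin, and the autophagy genes had 1, 2 and 2 in place of 4 with bleomycin plus ST045849. The call of Gpnmb with bleomycin and that of Gnptg ended under median-of-ratios scaling and under removal of the length trend, that of Mitf under both other scalings, and those of Rheb and, with bleomycin, of Gabarapl1 under median-of-ratios scaling.

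**Figure D5:**
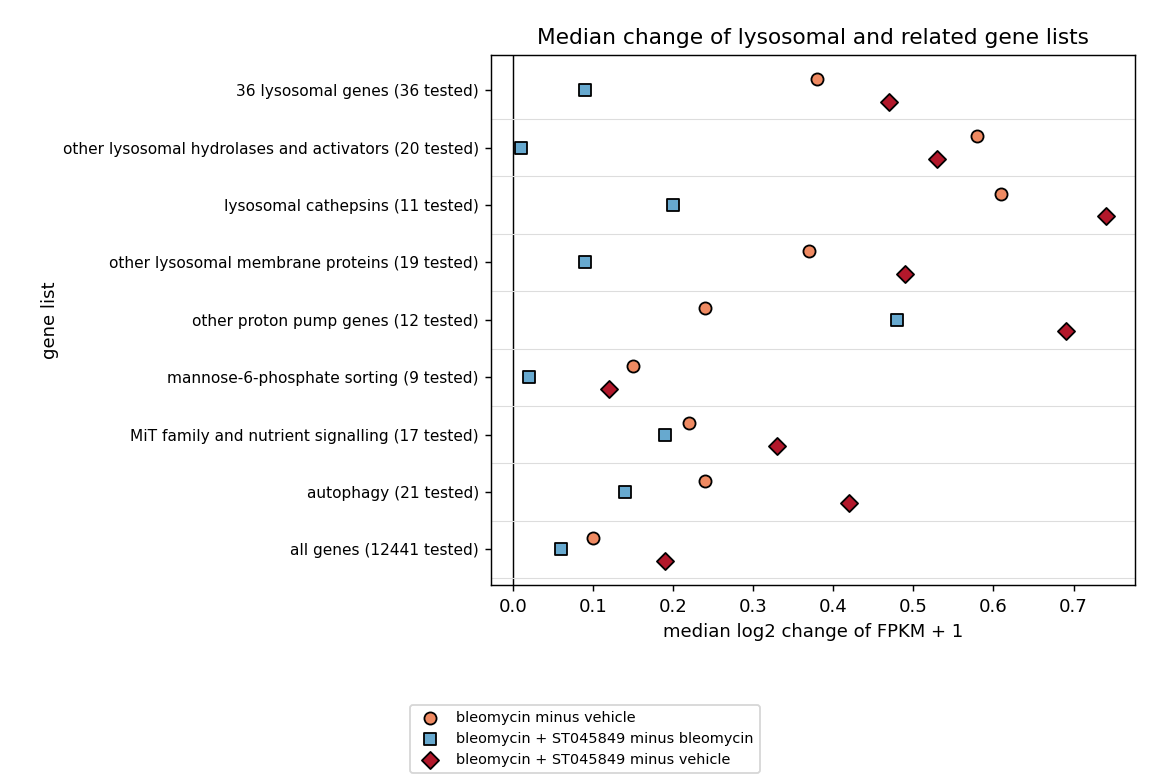
Points give the median log2 change of FPKM + 1 over the tested genes of each list, with 1 marker for each comparison, for the 36 lysosomal genes at the top, 7 related lists below them and all genes tested at the bottom. The 36 genes stand at 0.38, 0.09 and 0.47, and the other proton pump genes have the highest median with ST045849 against bleomycin, at 0.48 (0.13 with the exon length trend removed).

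Cells rich in lysosomes other than chondrocytes were looked for by their markers. The summed level of 12 macrophage markers was 11.9, 18 and 13.6 FPKM with bleomycin plus ST045849, 11, 12.7 and 11.5 with bleomycin, and 6.09, 3.08 and 3.05 with vehicle. It was carried by the 3 markers that passed the filter, Cd68, Lyz2 and Cd14, all of which rose in both comparisons with vehicle. The markers C1qb, C1qc, Tyrobp and Fcgr1 were listed at 0 in all 9 libraries, and Ptprc did not exceed 0.02 FPKM. Of the other markers that did not pass the filter, Csf1r was above 0 in all 9 libraries, at up to 0.153 FPKM. Aif1, C1qa and Adgre1 were at 0 in 4, 8 and 7 libraries and reached 0.338, 0.144 and 0.0247 FPKM. The summed level of 8 osteoclast markers was 19.3 to 32.6 FPKM with bleomycin plus ST045849, 14.9 to 23.5 with bleomycin and 13 to 25.5 with vehicle, and neither of the 2 that were tested, Acp5 and Ctsk, was called. The summed level of fibroblast markers was 1470 to 2850 FPKM with bleomycin plus ST045849, 2620 to 3730 with bleomycin and 1700 to 2380 with vehicle. Of the 5 that were tested, Thy1 and Prg4 (40%) rose in both comparisons with vehicle, and the other 3 were not called. Of all genes, 4.2% rose with bleomycin and 8.11% with bleomycin plus ST045849. In the latter comparison 3 of the 5 had changes above 0 and 2 below, with a median of 0.06 beside 0.19 over all genes. The part of these cells in the changes above was not tested, and in RNA from whole cultures more cells of a kind and more RNA per cell cannot be told apart.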

How the data were processed

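The data are 9 RNA sequencing libraries of primary mouse articular chondrocytes. Per the labels' protocols, poly(A) RNA was made into strand-specific libraries. Trimmomatic trimmed the reads and STAR aligned them to GRCm38, per the submitters' processing notes, with versions not given. The authors deposited FPKM per gene. How strand, annotation and program entered these FPKM is not given in the sources used here, so overlapping genes are uncertain.

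Group means of log2(FPKM + 1) were fitted over all 9 libraries in limma 3.58.1 (R 4.3.3), with trended variances and 6 residual plus 4.95 prior degrees of freedom. P-values were adjusted by Benjamini-Hochberg over the 12441 genes that reached 1 FPKM in 3 or more libraries, and genes were called under 0.05. Levels carry the SD and log2 changes the SE. Exon lengths, positions and overlaps came from GENCODE vM21, which held 99.5% of the identifiers, and promoter windows from RefSeq. The fitting script was tested on simulated data for bleomycin against vehicle. It recovered 40% of 100 genes changed by a log2 of 1 and 88% of 100 changed by 2, with 8 false calls. A gene that was not called may therefore still have changed. The simulated noise was independent between genes and libraries, and only genes with a mean log2 level above 3 were changed. It held no exon length trend or other deviation shared within a library, so the 8 false calls do not give the error rate of the real data. Genes are named by rule. These are Glb1, Tfeb, Tfe3, the 3 members with the highest mean, up to 6 called members per comparison and direction or otherwise the 3 largest changes, the largest change of each role, and up to 2 called genes of each related list. Some further members were given values after these had been seen, to complete their roles. The 36 genes and the lists were chosen with earlier results of these data known.

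Replicate numbers were checked for pairing by correlating deviations from the group means. Between bleomycin plus ST045849 and bleomycin, equal numbers gave 0.466, 0.481 and 0.5, each the highest for its library, so that comparison is also given with the number as a block. This pairing comes from the data and not from the labels. The other pairs of groups gave -0.519 to 0.546 for equal numbers. Against vehicle, libraries 1 and 2 had their highest correlation with the numbers crossed. Library 1 with vehicle library 2 and library 2 with vehicle library 1 gave 0.567 and 0.568 for bleomycin plus ST045849. For bleomycin these gave 0.251 and 0.301. Library 3 was highest with vehicle library 3, at 0.424 and 0.546. Blocks with crossed numbers were not fitted. Alternatives were quantile normalization, median-of-ratios scaling, pseudocounts of 0.1 and 0.5, a filter on a mean of 5 FPKM or no filter, untrended variances, fits of 2 groups alone, replicate blocks, removal of each library's exon length trend (loess, span 0.5), and leaving out each of the 9 libraries.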

Additional observations from a re-analysis of the deposited data

How the results depend on the processing

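Of the 36 genes, the number called higher with bleomycin against vehicle was 2 in the main fit. It was 1 with no filter, 0 with median-of-ratios scaling, 1 with quantile normalization, 6 with 2 groups alone and 4 with the exon length trend removed and a replicate block in 2 groups alone. Leaving out single libraries of the 2 compared groups gave 1 without vehicle library 1 and 0 without any other. Leaving out single ST045849 libraries, which lie outside this comparison, gave 2 to 4. Their median change of 0.38 was 0.2 with median-of-ratios scaling and 0.23 with the length trend removed, with or without the block. Leaving out single libraries gave 0.35 to 0.44.

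With ST045849 against bleomycin, 0 were called higher in the main fit, 2 with the replicate block in 2 groups alone, 0 with that block and the length trend removed, and 0 to 2 without single libraries. The number called lower was 0 to 1 without single libraries, and the 1 (Idua), like the 2 higher (Neu1 and Atp6v0d1), came without ST045849 library 1. The median of 0.09 was 0.03 with median-of-ratios scaling, -0.17 with quantile normalization and 0.04 with the length trend removed, with or without the block. Without single libraries it was 0.05 to 0.15.

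With bleomycin plus ST045849 against vehicle, 8 were called higher in the main fit, 5 with median-of-ratios scaling, 3 with quantile normalization, 5 with 2 groups alone, and 0 with the replicate block in 2 groups alone, with or without removal of the length trend. In these groups libraries 1 and 2 deviated together with the numbers crossed (0.567 and 0.568) and not with equal numbers (-0.519 and -0.279). The block joins equal numbers, so it is no check on paired libraries here. The block over all 9 libraries called 9. Leaving out single libraries gave 3 (without vehicle library 2 or 3) to 12. The median of 0.47 was 0.23 with either other scaling and 0.25 with the length trend removed, with or without the block, and 0.35 to 0.52 without single libraries. The cause of these differences was not tested.
Some changes of named genes that were not called turned round in sign. With the length trend removed, with or without the block, the log2 change with ST045849 against bleomycin was -0.02 for Lamp1, 0.18 for Lamp2, -0.06 for Naglu, 0.26 for Npc1 and -0.12 for Psap, that with bleomycin plus ST045849 against vehicle -0.07 for Ids, 0.13 for Npc1 and -0.17 for Psap, and that with bleomycin against vehicle -0.13 for Npc1 and -0.05 for Psap. With quantile normalization ST045849 against bleomycin gave -0.27 for Lamp1, -0.02 for Naglu, -0.34 for Psap, -0.03 for Smpd1 and -0.07 for Tfe3, the comparison of bleomycin plus ST045849 with vehicle -0.08 for Ids and -0.07 for Psap, and bleomycin against vehicle -0.08 for Npc1. With median-of-ratios scaling the values were -0.02 for Tfe3 (ST045849 against bleomycin), -0.17 for Ids and -0.04 for Psap (bleomycin plus ST045849 against vehicle), and -0.16 for Npc1 and -0.1 for Psap (bleomycin against vehicle). Leaving out single libraries gave ranges across 0. With bleomycin against vehicle these were -0.19 to 0.16 for Tfeb, -0.17 to 0.11 for Atp6v0d1, -0.1 to 0.08 for Npc1 and -0.02 to 0.18 for Psap. With ST045849 against bleomycin they were -0.06 to 0.11 for Tfe3, -0.37 to 0.29 for Lamp2 and -0.12 to 0.06 for Ppt1, and with bleomycin plus ST045849 against vehicle -0.25 to 0.51 for Ids and -0.67 to 0 for Idua. At depths of 31500000 to 35600000 fragments, the fewest fragments of any of the 36 genes in a library were 291.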
